A study of Mus musculus with 36 samples.

Results

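The 32 genes described here encode parts of the motile cilium and proteins of the cells that carry it. They were taken as a fixed set by gene symbol and Ensembl identifier, and all 32 were found among the 46078 genes of the deposited count table. They comprise 10 dynein heavy chains (Dnah5, Dnah9 and Dnah11 of the outer arm, Dnah2, Dnah3, Dnah6, Dnah7a, Dnah7b, Dnah10 and Dnah12 of the inner arm), 2 light chains (Dnali1 and Dynlrb2) and 2 dynein assembly factors (Dnaaf1 and Zmynd10). A further 3 belong to the central apparatus (Hydin, Spag16 and Spag17), 3 to the radial spokes (Rsph1, Rsph4a and Rsph9) and 4 to the molecular ruler and the nexin link (Ccdc39, Ccdc40, Drc1 and Ccdc65). Another 5 lie in the tubule wall or elsewhere in the axoneme (Tekt1, Tekt4, Enkur, Ccdc113 and Ak7), and the last 3 (Tppp3, Tmem212 and Sec14l3) were listed as other genes of ciliated cells. The 32 genes and the other gene lists used below were chosen with earlier results of these data known. Their counts beside shares of all genes are therefore descriptions and do not test an excess.

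Polyadenylated RNA was sequenced from the lungs of female C57BL/6 mice, an inbred strain. Each mouse had received a single intranasal instillation of 50 μL of 5% dextrose. In the groups named US, S and L that liquid carried 50 μg of graphene oxide sheets of a different lateral size, and in the group named D it carried 0 μg. Lungs were taken 1, 7 or 28 days later, at 9, 10 or 13 weeks of age by the labels, which gave 12 groups of 3 libraries and 36 libraries in all. The large airways had been cut away and small pieces of every lobe were used, so the cilia measured are those of the airways left in such pieces. In whole tissue, fewer ciliated cells and less RNA per ciliated cell cannot be told apart. By the protocols a group held 4 to 5 animals. Which animal gave which library is not labelled, so each p-value speaks only of the spread among the libraries, which may be technical.

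Motile cilia line the conducting airways and beat to move mucus towards the throat. Each is built on a ring of doublet microtubules around a central pair. Dynein arms pull neighbouring doublets past each other, the nexin link holds the doublets together so that sliding becomes bending, and radial spokes carry signals between the central pair and the arms. The genes are transcribed as a programme in multiciliated cells under the factor Foxj1 and factors of the RFX family, which bind a DNA element called the X-box.

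Promoter windows of 300 bases, from 250 bases before to 50 bases after the transcription start site, were matched by symbol in RefSeq (build GRCm38.p6) for 27 of the 32 genes. The genes Dnaaf1, Dnah3, Rsph1, Rsph4a and Tppp3 had no match. On either strand, the letters GTTGCC, which form an arm of the X-box, were found in 12 of the 27 genes (44.4%). They were found in 14.1% of the 27025 genes of the whole table. In the separate list of other axonemal genes, described further below, 28 of 59 matched genes held them (47.5%). The full palindromic X-box, which can overlap GTTGCC, was searched as a single pattern of 14 bases. That pattern was in 0 of the 27 genes and in 0.529% of the table. X-boxes of other lengths or letters were not counted, so the 0 does not show that the genes lack them. The forkhead letters TGTTTAC were in 1 of the 27 (Ak7) and in 4.05% of the table. Of the 7 genes that rose at day 7 after US, as described below, 3 held GTTGCC, and of the 20 other matched genes 9 held it. The 250 bases before the start site are shown for those 3 genes and, beside them, for Dynlrb2 and Enkur, which hold the same letters and did not pass against D in the edgeR fit described below. The sequences run 5′ to 3′ on the gene's own strand, and capitals mark GTTGCC or its reverse complement. The letters begin 163 bases before the start site in Dnah7b (chr1:46066603-46066852, plus strand), 20 in Dnah10 (chr5:124724835-124725084, plus strand), 13 in Hydin (chr8:110266727-110266976, plus strand), 51 in Dynlrb2 (chr8:116504765-116505014, plus strand) and 34 in Enkur (chr2:21205366-21205615, minus strand). A match describes the letters and does not show a bound site. In the deposited annotation Dnah7b begins at base 46066315, before the RefSeq start site, so its window lies inside that gene model.
Dnah7b: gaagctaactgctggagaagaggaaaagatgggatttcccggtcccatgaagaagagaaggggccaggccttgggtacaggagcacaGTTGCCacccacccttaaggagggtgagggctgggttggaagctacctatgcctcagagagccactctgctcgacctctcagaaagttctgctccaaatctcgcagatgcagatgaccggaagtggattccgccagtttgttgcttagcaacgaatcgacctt
Dnah10: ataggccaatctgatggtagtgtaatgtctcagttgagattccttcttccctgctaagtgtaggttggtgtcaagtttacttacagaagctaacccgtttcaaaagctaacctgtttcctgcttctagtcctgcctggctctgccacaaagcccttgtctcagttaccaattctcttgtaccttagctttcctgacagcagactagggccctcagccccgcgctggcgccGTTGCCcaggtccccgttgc
Hydin: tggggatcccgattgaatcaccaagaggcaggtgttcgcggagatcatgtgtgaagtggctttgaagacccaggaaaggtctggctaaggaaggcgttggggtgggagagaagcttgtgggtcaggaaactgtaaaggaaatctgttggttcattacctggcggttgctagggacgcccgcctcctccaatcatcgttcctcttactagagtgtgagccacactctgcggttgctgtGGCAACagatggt
Dynlrb2: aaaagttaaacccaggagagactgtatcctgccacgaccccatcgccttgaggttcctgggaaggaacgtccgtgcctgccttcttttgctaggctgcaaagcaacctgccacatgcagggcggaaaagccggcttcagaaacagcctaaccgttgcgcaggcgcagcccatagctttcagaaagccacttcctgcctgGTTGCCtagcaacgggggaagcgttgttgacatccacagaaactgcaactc
Enkur: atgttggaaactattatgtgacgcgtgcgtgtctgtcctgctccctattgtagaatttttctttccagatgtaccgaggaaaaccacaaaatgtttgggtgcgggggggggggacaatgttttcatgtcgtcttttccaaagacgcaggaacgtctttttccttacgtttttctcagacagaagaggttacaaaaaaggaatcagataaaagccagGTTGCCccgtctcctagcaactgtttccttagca

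Between genes, levels were compared as TPM, a measure scaled for transcript length and library size, averaged over the 36 libraries. Sec14l3, a lipid-binding protein of the SEC14 family, stood highest at 838 TPM. Tppp3, a tubulin-binding protein, followed at 356 TPM, then Dynlrb2, a light chain of the roadblock family, at 135.8 TPM, Tmem212, a membrane protein, at 64.2 TPM and Rsph1, a radial spoke protein, at 36.3 TPM. The 10 dynein heavy chains, the motor subunits themselves, were low, from 1.55 TPM for Dnah7b to 9.01 TPM for Dnah12. Hydin and Spag17, large proteins of the central apparatus, were at 2.189 and 3.291 TPM. The remaining 15 genes lay between 3.58 TPM (Dnaaf1) and 23.5 TPM (Enkur). Dnah7a and Dnah7b are near-identical copies whose reads the counting could split, and their values are uncertain: Dnah7a had the higher TPM (4.20 against 1.55) with the lower mean count (117.4 against 171.2). Whether counting used strand is not given in the sources used here. Reads of genes that overlap Hydin, Spag17, Dnah9, Dnah10, Zmynd10 or Ccdc39 could therefore be shared. The same holds for Dnah2, Dnah3, Dnah11, Dnali1, Dnaaf1, Spag16, Rsph9 and Tmem212, which also overlap genes on the other strand.

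Counts were compared within a gene across libraries as CPM, counts scaled to the size of each library and not to gene length. Total counts ran from 16154696 to 23808264 in 35 libraries. S day 7 replicate 2 was the exception at 80566751, which is 4.13 times the median of the others, and thinning its counts left the number of the 32 genes past the threshold given below as it was in every comparison. All 32 genes passed the filter on low counts that left 16903 genes. A gene is said to have risen or fallen where edgeR's quasi-likelihood test, with Benjamini-Hochberg adjustment over those 16903 genes, gave an adjusted p under 0.05, and passing refers to that fit unless another tool is named. The 3 libraries of D at day 7 differed from each other in these genes, and every comparison of that day with D rests on them. Results are therefore also given without single libraries.

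**Figure D1:**
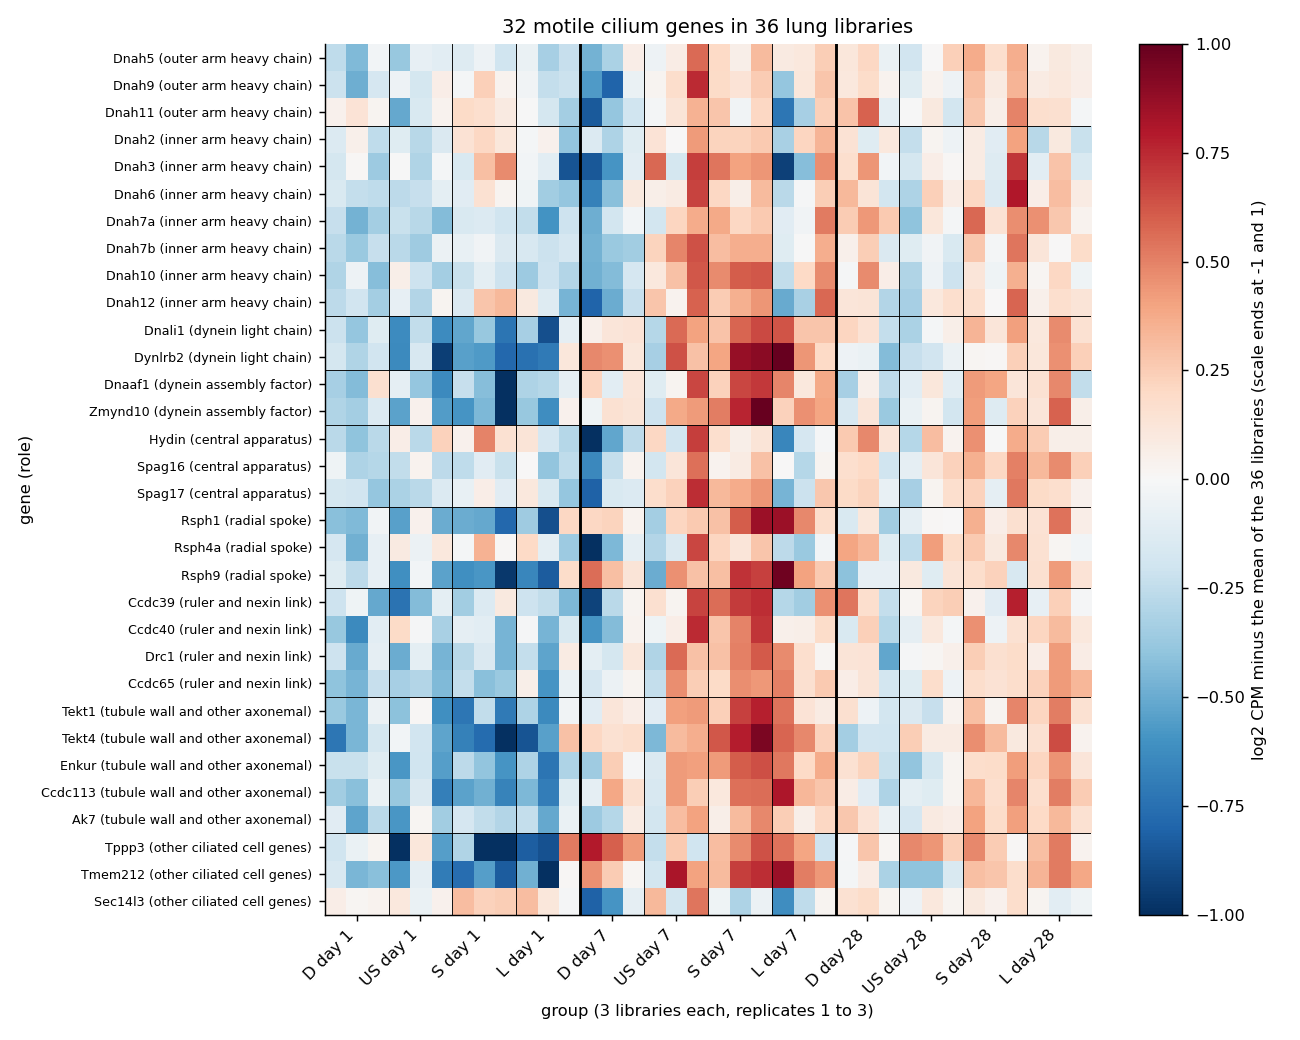
Log2 CPM of the 32 genes (rows, grouped by role) in each of the 36 libraries (columns, 3 per group), as the difference from the gene's own mean over all libraries. At day 1 most short-transcript genes are below their mean, at day 7 the US replicate 3 and all S libraries are above it for most rows, and D replicate 1 of day 7 is the lowest of all libraries for several heavy chains, Hydin, Spag17 and Sec14l3.

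Among the comparisons with D, genes passed the test at day 7 and at no other day. After US, 7 of the 32 rose and 0 fell, where 0.905% of all tested genes rose and 1.18% fell. These were 4 dynein heavy chains (Dnah7b, Dnah10, Dnah9 and Dnah12), the 2 central apparatus genes Hydin and Spag17, and Sec14l3. After S, Dnah10 and Dnah7b rose and 0 fell, where 0.408% of all tested genes rose and 0.0414% fell. After L, 0 rose and 0 fell in edgeR, where 0.0887% of all tested genes rose and 0.0651% fell. There 8 of the 32 had an unadjusted p under 0.05, against 4.87% of all tested genes, and DESeq2 and limma on TPM also gave 0.

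The fitted differences leaned one way in all 3 exposed groups at day 7. The log2 fold change was above 0 for 26 of 32 genes after US (51.5% of all genes), for 31 after S (48.0%) and for 31 after L (50.0%). Its median over the 32 was 0.36 after US, 0.46 after S and 0.28 after L, where the median of all tested genes was 0.01, -0.01 and 0.00. All 3 S libraries lay above all 3 D libraries in 22 of the 32 genes, against 11.1% of all genes. The same held for 9 genes after US (9.79% of all genes) and for 7 after L (4.99%). These comparisons share the 3 D libraries, so their directions do not support each other.

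**Figure D2:**
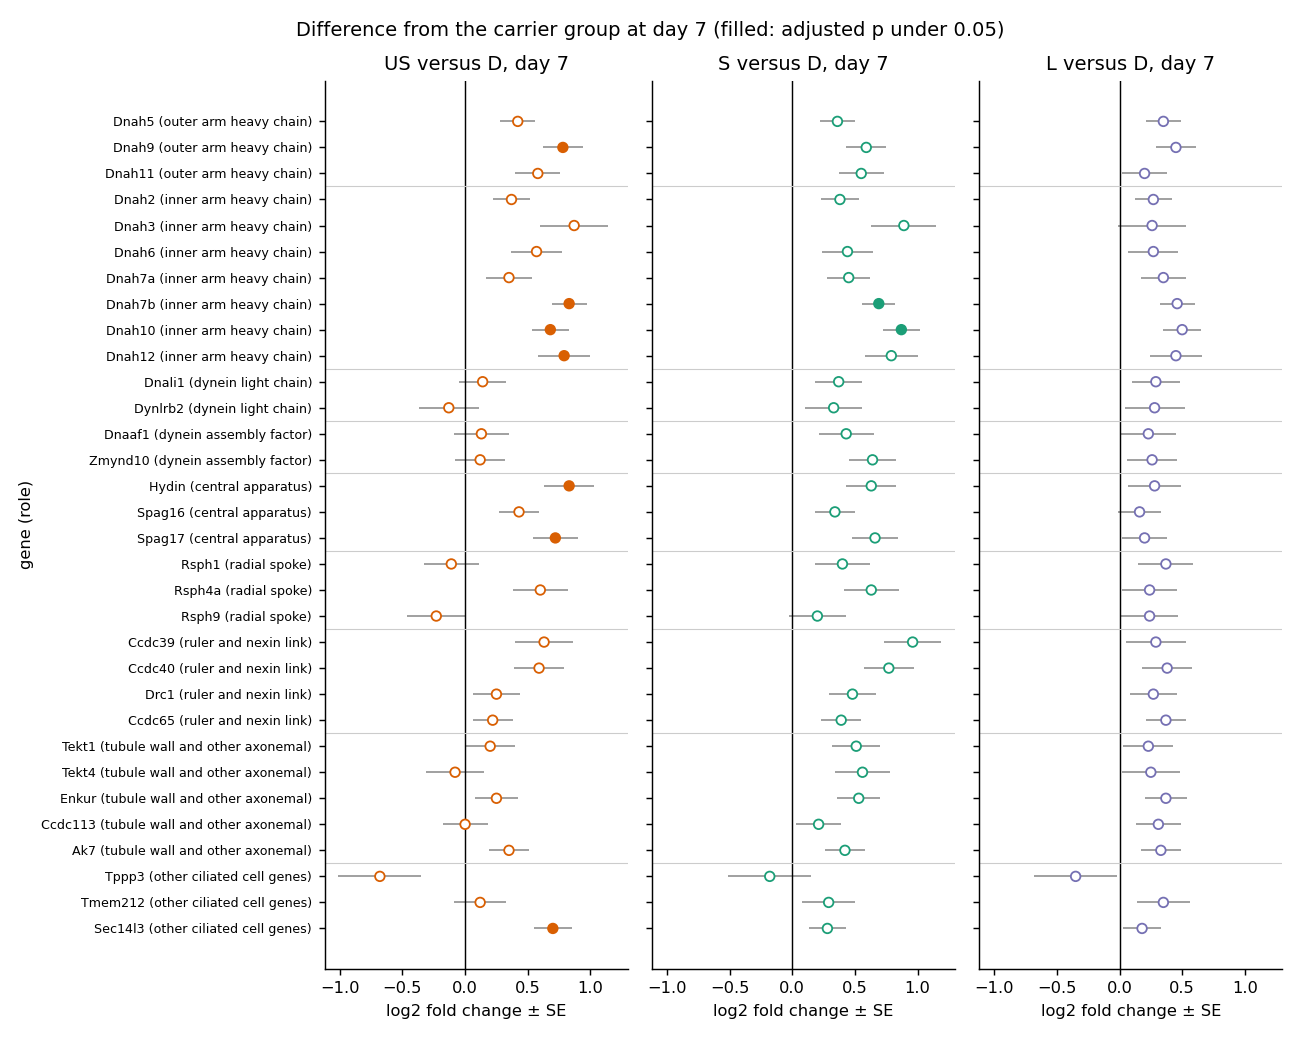
Fitted log2 fold change (± SE) of each gene against D at day 7 after US (left), S (middle) and L (right). Filled points passed the test, 7 after US and 2 after S, and Tppp3 is the one gene below 0 in all 3 panels.

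Of the 7 inner arm heavy chains, which drive the bending of the axoneme, 3 rose after US and 2 after S. Dnah7b (ENSMUSG00000041144, chr1:46066315-46373546 in GRCm38) stood at 5.61, 6.02 and 6.12 CPM in D at day 7, at 9.07, 10.9 and 12.1 CPM after US, at 9.64, 10.0 and 10.0 CPM after S and at 7.15, 7.77 and 10.0 CPM after L. Every exposed library lay above every D library, with US and S overlapping each other. The log2 fold change of Dnah7b was 0.83 ± 0.14 (SE; 1.78-fold, adjusted p = 0.00123 by edgeR's quasi-likelihood test) after US, 0.69 ± 0.13 (1.61-fold, adjusted p = 0.0155) after S and 0.46 ± 0.14 (adjusted p = 0.395) after L. It was the one gene of the 32 that passed after US whichever of the 6 libraries of that comparison was left out.

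Dnah10 (ENSMUSG00000038011, chr5:124725085-124834308), another inner arm heavy chain, stood at 18.2, 18.8 and 22.6 CPM in D, at 27.2, 31.0 and 39.0 CPM after US, at 35.2, 38.5 and 38.9 CPM after S and at 21.4, 29.1 and 35.1 CPM after L. The US and S libraries were all above D, and the lowest L library lay inside the D range. Dnah10 differed by 0.87 ± 0.15 (1.83-fold, adjusted p = 0.00713, edgeR) after S and by 0.68 ± 0.15 (1.61-fold, adjusted p = 0.026) after US. Dnah12 stood at 13.9, 17.2 and 20.6 CPM in D, at 29.4, 24.8 and 36.5 CPM after US, at 28.8, 30.9 and 32.9 CPM after S and at 17.1, 19.3 and 36.1 CPM after L. Both US and S lay above D in every library, and L was spread over the ranges of the others. Its difference was 0.79 ± 0.21 in both groups, which passed after US (adjusted p = 0.0417, edgeR) and not after S (adjusted p = 0.0841). The remaining inner arm chains (Dnah2, Dnah3, Dnah6 and Dnah7a) were 0.35 to 0.87 above D on the log2 scale after US. Of these 4, 0 passed in edgeR, while DESeq2 and edgeR without the filter called Dnah3.

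In the outer arm, which sets beat frequency, Dnah9 (ENSMUSG00000056752, chr11:65831282-66168551) stood at 14.2, 12.1 and 20.1 CPM in D, at 21.4, 23.8 and 35.3 CPM after US, at 24.1, 23.1 and 25.1 CPM after S and at 16.1, 22.8 and 25.5 CPM after L. The US and S libraries were above all D libraries, with D replicate 3 close to the lowest US library. The difference was 0.78 ± 0.16 (1.71-fold, adjusted p = 0.0189, edgeR) after US and 0.59 ± 0.16 (adjusted p = 0.116) after S. Dnah5 and Dnah11 gave 0.42 ± 0.14 and 0.58 ± 0.18 after US, with adjusted p = 0.0833 and 0.0668. Summed over the 10 heavy chains, the level was 141.6, 157.6 and 205.8 CPM in D, 238.2, 230.7 and 327.8 CPM after US, 265.5, 253.4 and 277.8 CPM after S and 171.1, 209.5 and 276.4 CPM after L. The US and S sums therefore lay above D in all 3 libraries each.

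Hydin (ENSMUSG00000059854, chr8:110266977-110610253), which forms a projection of the central pair, stood at 9.15, 12.7 and 15.2 CPM in D, at 21.1, 16 and 29.4 CPM after US, at 20.5, 19.0 and 19.9 CPM after S and at 11.6, 16.2 and 18.1 CPM after L. The US range began just above the D range, the S libraries lay close together above it, and L overlapped D. The difference was 0.83 ± 0.20 (1.77-fold, adjusted p = 0.037, edgeR) after US and 0.63 ± 0.20 (adjusted p = 0.188) after S. Spag17, another large protein of that apparatus, stood at 7.18, 11.3 and 11.4 CPM in D, at 14.2, 14.7 and 20.9 CPM after US, at 15.7, 16.2 and 17 CPM after S and at 9.07, 10.8 and 15.1 CPM after L. Again US and S did not overlap D. Spag17 differed by 0.72 ± 0.18 (1.64-fold, adjusted p = 0.0408, edgeR) after US and by 0.66 ± 0.18 (adjusted p = 0.111) after S. Spag16, a smaller protein of the central apparatus, gave 0.43 ± 0.16 after US with adjusted p = 0.113.

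In the other structural groups 0 genes passed in edgeR in any comparison of a size with D, and 1 gene is given for each. Other fits at day 7 called Ccdc40 after US (DESeq2 and limma on TPM), and Ccdc39, Ccdc40 or Enkur after S (limma, with Ccdc39 and Ccdc40 also in DESeq2). Variants of the edgeR fit called Ccdc39 after S without the filter and with the replicate number as a block. Offsets for GC content and transcript length gave Ccdc39 and Ccdc40 there. Without D replicate 3, edgeR called Ccdc39 and Ccdc40 after US and after S, and Rsph4a after US. Without US replicate 2 it called these 3 genes after US. Dynlrb2 of the dynein light chains stood at 50.0, 49.2 and 38.9 CPM in D, at 28.6, 55.9 and 44.1 CPM after US, at 47.1, 65.6 and 67.0 CPM after S and at 78.6, 48.9 and 41.3 CPM after L. All groups overlapped, and the lowest value at this day was that of US replicate 1. The log2 fold change was -0.13 ± 0.24 after US and 0.33 ± 0.23 after S. Zmynd10, a dynein assembly factor, stood at 13.0, 14.9 and 14.7 CPM in D, at 11.6, 17.4 and 18 CPM after US, at 19.1, 22.8 and 27.0 CPM after S and at 15.7, 18.4 and 17.6 CPM after L. Here the S and L libraries lay above D and US straddled it. The difference was 0.64 ± 0.19 (adjusted p = 0.152, edgeR) after S and 0.12 ± 0.20 after US.

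Rsph1 of the radial spoke head stood at 25.4, 25.7 and 22.6 CPM in D, at 17.4, 25.6 and 26.5 CPM after US, at 27.0, 33.6 and 39.8 CPM after S and at 39.9, 30.8 and 24.9 CPM after L. The S libraries were above D, and US and L overlapped it. Its difference was -0.11 ± 0.22 after US and 0.40 ± 0.22 after S. Ccdc39, which with Ccdc40 sets the axonemal repeat, stood at 14.4, 22.8 and 27.9 CPM in D, at 30.7, 28.0 and 43.7 CPM after US, at 40.4, 44.5 and 45.8 CPM after S and at 22.5, 21.5 and 37.6 CPM after L. The S libraries stood clear of D, and the lowest US library was level with the highest D library. Ccdc39 had the highest fitted difference of the 32 after S, 0.96 ± 0.23 (1.94-fold, adjusted p = 0.0601, edgeR), and 0.63 ± 0.23 (adjusted p = 0.101) after US. Enkur, an axonemal protein of the tubule lumen, stood at 11.1, 16.9 and 14.1 CPM in D, at 12.9, 19.1 and 18.9 CPM after US, at 19.1, 21.6 and 22.2 CPM after S and at 20.5, 16.3 and 18.4 CPM after L. Only the S libraries were all above D. The difference was 0.53 ± 0.17 (adjusted p = 0.172, edgeR) after S and 0.25 ± 0.17 after US.

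The highly expressed ciliated cell genes went apart. Sec14l3 stood at 738.3, 858.7 and 1210 CPM in D, at 1617, 1136 and 1871 CPM after US, at 1253, 1043 and 1240.3 CPM after S and at 839.7, 1081 and 1312 CPM after L. D replicates 1 and 2 were the lowest of the day except for L replicate 1, and US replicate 2 lay below D replicate 3, so the groups overlapped. Sec14l3 rose by 0.70 ± 0.15 on the log2 scale (1.63-fold, adjusted p = 0.0232, edgeR) after US and differed by 0.28 ± 0.15 (adjusted p = 0.589) after S. Tppp3, named here after its values were seen, stood at 510.7, 444.2 and 394.5 CPM in D, at 249.1, 353.3 and 255.8 CPM after US, at 363.5, 407.8 and 458.1 CPM after S and at 427.8, 387.0 and 254.5 CPM after L. All US libraries were below all D libraries, which held for 8.87% of all genes and for no other gene of the 32. Its difference after US was -0.68 ± 0.33 with adjusted p = 0.19, and it did not pass.

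**Figure D3:**
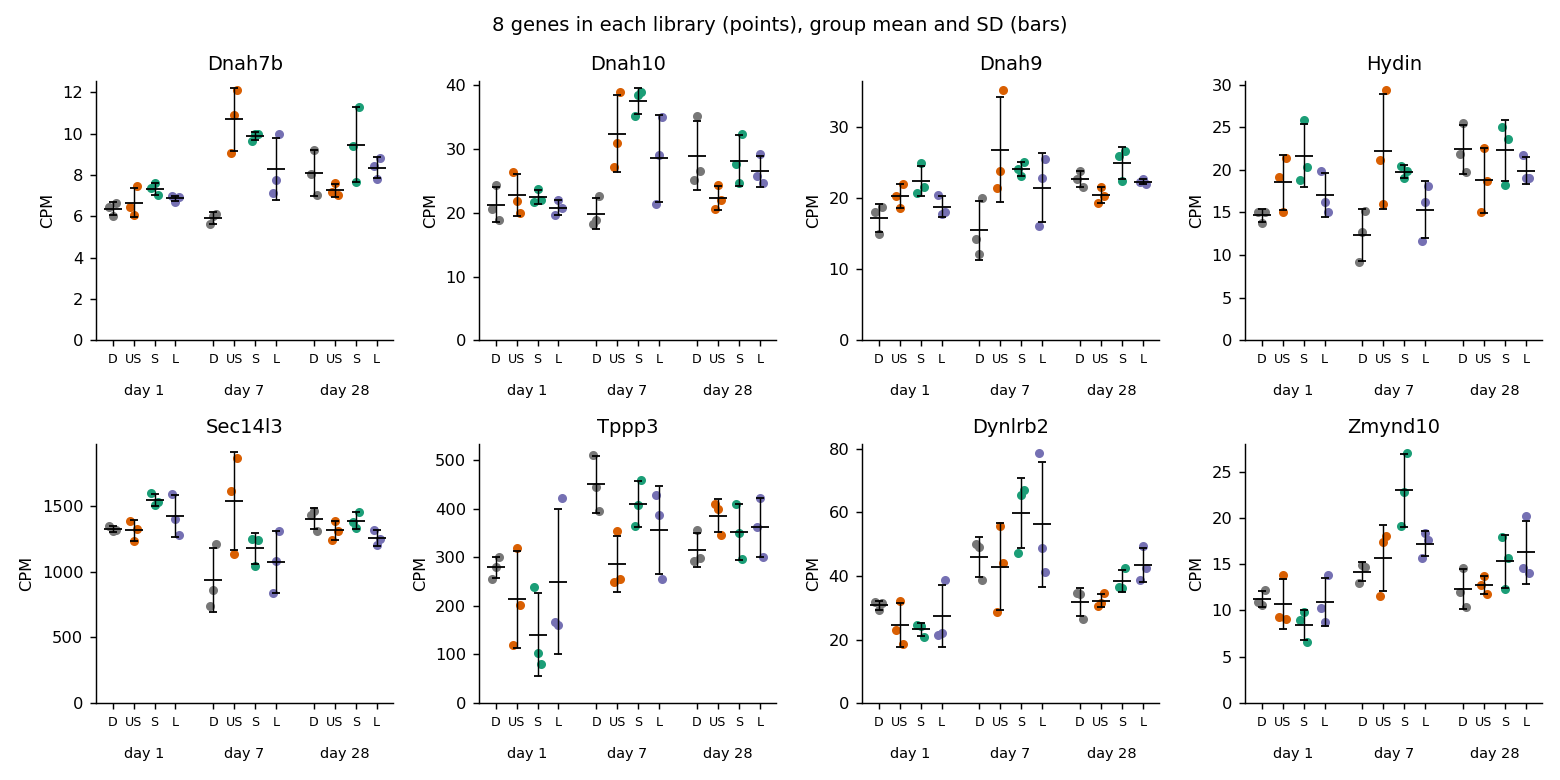
CPM of 8 of the genes in each library (points; grey D, orange US, green S, purple L) with group means and SD (bars) at days 1, 7 and 28. The D mean of day 7 is below the D means of days 1 and 28 for Dnah7b, Hydin and Sec14l3 and above them for Tppp3 and Dynlrb2.

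Single libraries decided several of the calls at day 7. After US, the 7 genes fell to 1 (Dnah7b) without D replicate 1, without D replicate 2 or without US replicate 3, and to 3 without US replicate 1. The share of all tested genes that rose also fell, from 0.905% to 0.0583%, 0.0991%, 0.0582% and 0.198% in the same order. The 7 became 15 without D replicate 3 or without US replicate 2, where the share of all tested genes that rose was 6.35% and 9.36%. After S, the 2 genes became 0 without D replicate 1, D replicate 2 or S replicate 3, 1 without S replicate 2 and 5 without D replicate 3. Of all tested genes, 0.0%, 0.0291%, 0.0292%, 0.0641% and 0.344% rose in these fits, in the same order. Without D replicate 1, 0 genes in the whole table passed after S. With these libraries left out, the log2 fold change after US ranged from 0.71 to 0.94 for Dnah7b, from 0.51 to 0.80 for Dnah10 and from 0.55 to 1.02 for Hydin, and after S it ranged from 0.82 to 0.97 for Dnah10. Other fits ended calls as well. In the 3 fits of limma on TPM, 0 of the 7 genes passed after US and neither Dnah10 nor Dnah7b passed after S. In a fit of the compared groups alone, 0 of the 32 passed after US, and Dnah10 but not Dnah7b passed after S.

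Between sizes, 0 of the 32 genes passed in any of the 9 comparisons within a day in edgeR, in either direction. Of all tested genes, 0.0177% passed for S against US, 0.0% for L against US and 0.0% for L against S at day 1. At day 7 these shares were 0.142%, 0.00592% and 0.154%, and at day 28 they were 0.0%, 0.515% and 0.0651%. DESeq2 and limma also gave 0. Counts at an unadjusted p under 0.05, for S against US, L against US and L against S in that order, were 2, 0 and 2 of the 32 at day 1 (13.7%, 6.27% and 10.4% of all genes). They were 4, 7 and 4 at day 7 (13.2%, 15% and 6.69%) and 6, 2 and 0 at day 28 (5.44%, 11.3% and 3.76%). At day 7 the median log2 difference of S from US was 0.17 over the 32 genes, with 22 above 0. That of L from S was -0.18, with 3 above 0, and that of L from US was -0.05, with 14 above 0. At day 28 the median of S against US was 0.25, 31 of the 32 genes were above 0, and all 3 S libraries lay above all 3 US libraries in 13 of them, against 9.25% of all genes. The share of all tested genes above 0 is not given here for comparisons between sizes, so these counts above 0 have no background beside them.

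The difference between US and D changed between days 7 and 28 for 2 genes. At day 28 Dnah7b stood at 8.04, 9.23 and 7.02 CPM in D and at 7.16, 7.59 and 7.01 CPM after US, and Dnah10 at 25.2, 35.2 and 26.5 CPM in D and at 20.6, 24.4 and 22.0 CPM after US. The groups overlapped for Dnah7b and did not for Dnah10, with US the lower. As an interaction, the US difference at day 28 minus that at day 7 was -0.97 ± 0.19 for Dnah7b (adjusted p = 0.0299, edgeR) and -1.04 ± 0.21 for Dnah10 (adjusted p = 0.0386), and 0.0473% of all tested genes were called in that direction. The same interaction was below 0 for 25 of the 32 genes, and the share of all tested genes below 0 is not given here. In the other 5 interactions 0 of the 32 genes passed in edgeR. Of all tested genes, 0.136% were called for US between days 7 and 1, 0.0296% for S between days 28 and 7 and 0.0% in the other 3. There the counts at an unadjusted p under 0.05 were 7 (US, day 7 minus day 1), 12 (S, day 7 minus day 1), 7 (S, day 28 minus day 7), 2 (L, day 7 minus day 1) and 4 (L, day 28 minus day 7). The shares of all tested genes at that threshold were 15%, 9.79%, 7.37%, 3.33% and 5.35% in the same order. DESeq2 gave 1, Dnah10, for S between days 28 and 7 and 0 elsewhere. For S between days 7 and 1, the interaction was above 0 in all 32 genes (50.9% of all tested genes) with a median of 0.44.

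At day 1 and day 28, 0 of the 32 genes passed against D after any size in edgeR, DESeq2 or limma on TPM. The share of all tested genes called in either direction was 0.0887%, 0.0473% and 0.0237% for US, S and L at day 1, and 0.0237%, 0.237% and 2.15% at day 28. Counts at an unadjusted p under 0.05 were 0, 6 and 0 of the 32 at day 1 (16.1%, 21.0% and 4.94% of all genes) and 2, 3 and 3 at day 28 (6.02%, 9.87% and 16.7%). The median log2 fold change at day 28 was -0.06 after US, 0.21 after S and 0.13 after L.

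The D group itself changed with time. From day 7 to day 28, 8 of the 32 genes rose (Dnah10, Dnah11, Dnah7a, Dnah7b, Dnah9, Hydin, Rsph4a and Sec14l3) and 0 fell, where 8.91% of all tested genes rose and 6.73% fell. Hydin rose in D from 12.3 ± 3.03 CPM (SD, n = 3) at day 7 to 22.4 ± 2.88 CPM at day 28, by 0.86 ± 0.20 on the log2 scale (adjusted p = 0.0238, edgeR). After US at day 7 it stood at 22.2 ± 6.81 CPM, about level with D at day 28. Sec14l3 rose in D by 0.59 ± 0.15 (adjusted p = 0.0254). Without D day 7 replicate 1, 0 of the 8 passed, and the same was found without D day 7 replicate 2 and without D day 28 replicate 2. There were 12 without D day 7 replicate 3, 2 without D day 28 replicate 1 and 1 without D day 28 replicate 3. The share of all tested genes that rose was 0.0117%, 0.122%, 0.0408%, 13.1%, 1.46% and 0.14% in these fits, in the same order. Between days 1 and 7 of D, and between days 1 and 28, 0 of the 32 genes passed in edgeR, where 0.0% and 0.0769% of all genes did, with 8 and 10 of the 32 at an unadjusted p under 0.05 (24.2% and 5.40% of all genes), and DESeq2 gave 0 in both.

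Transcript length moved with these differences. By GENCODE transcripts of the mouse, 12 of the genes (the 10 heavy chains, Hydin and Spag17) have transcripts of 7862 to 15783 bases and the other 20 of 527 to 4979 bases, a gap chosen as a division after the values were seen. After US at day 7, 12 of the 12 long-transcript genes were above 0 with a median of 0.70, and 6 rose. Of the 20 short-transcript genes, 14 were above 0 with a median of 0.17, and Sec14l3 rose. Among tested genes outside every list, the median was 0.27 for 1322 genes of 7000 bases or more and -0.05 for 12775 genes of 500 to 5000 bases. Across the 32 genes Spearman's rho between length and log2 fold change was 0.80, against 0.40 over 16610 other genes. Over all tested genes of any length, 0.905% rose and 51.5% lay above 0. These shares are not given here for the long and the short genes outside every list. The counts by length class therefore have no background of like length beside them. These values describe genes that share libraries.

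After S at day 7 the division was smaller. The median was 0.61 over the 12 long-transcript genes and 0.41 over the 20 short ones, 19 of which were above 0. Genes outside every list had medians of 0.05 (long) and -0.03 (short), and rho was 0.52 over the 32 genes and 0.16 over the others. After L at day 7 the medians were 0.32 and 0.27, and rho was 0.18. In D from day 7 to day 28 rho was 0.82, with medians of 0.51 over the long genes and -0.05 over the short ones, beside 0.38 and -0.08 for genes outside every list. With the trend of log counts on transcript length and GC content removed from each library, 2 genes passed after US (Dnah9 and Sec14l3), with 31 of 32 above 0 and a median of 0.31. After S that correction gave 8 genes (Ccdc39, Ccdc40, Dnah10, Dnah12, Dnah3, Dnah7b, Dnah9 and Spag17), 31 above 0 and a median of 0.44. In D from day 7 to day 28 it left 1 gene (Sec14l3) and a median of 0.10. Of all tested genes, 0.834% after US, 0.657% after S and 2.57% in D from day 7 to day 28 rose with this correction. Without it the shares were 0.905%, 0.408% and 8.91%, so calls after S became more frequent over all genes too. The share of all tested genes above 0 with the correction is not given here.

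**Figure D4:**
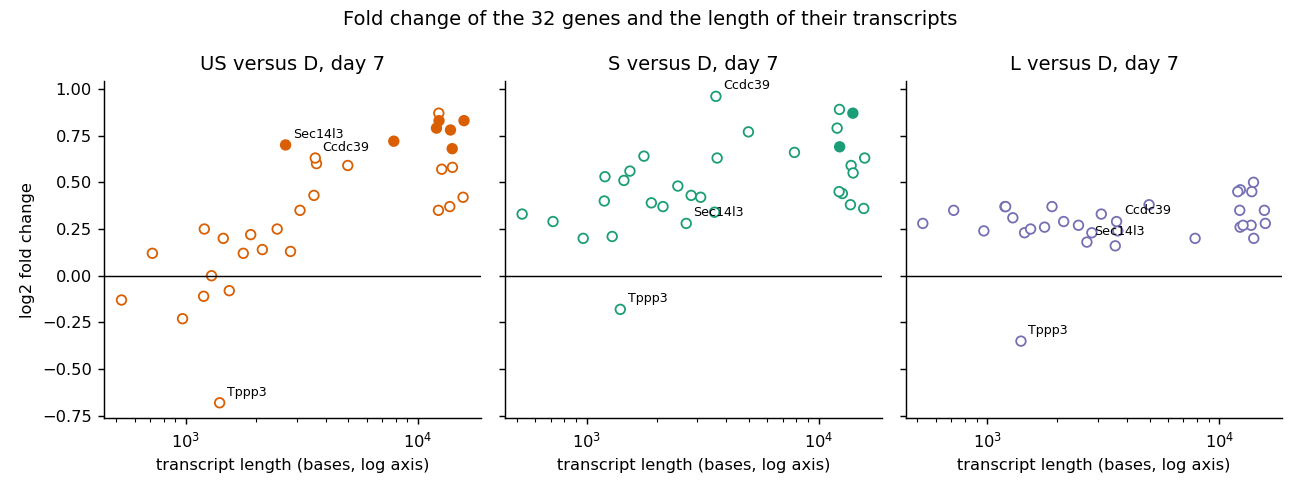
Log2 fold change of the 32 genes against D at day 7 by transcript length (bases, log axis) after US, S and L; filled points passed the test. After US the points climb with length (rho 0.80), after S they lie above 0 at nearly every length (rho 0.52), and Tppp3 is below 0 in each panel.

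The length pattern was also followed library by library. For each library a length index was taken as the median log2 deviation, from the gene's mean over 36 libraries, of the 1322 long genes outside every list minus that of the 12775 short ones. It was -0.48, -0.38 and -0.11 in D at day 7, 0.08, -0.27 and 0.21 after US, -0.11, -0.28 and -0.33 after S and -0.49, -0.21 and -0.05 after L. Over the 36 libraries Sec14l3 followed this index, with Pearson's r of 0.87 and rho of 0.90, and with r of 0.78, 0.94 and 0.75 within days 1, 7 and 28. Without the 2 libraries farthest from the median of the index, r was 0.83. Tppp3 went against it (r = -0.80, rho = -0.81), less so within day 28 (r = -0.34). Other short-transcript genes went against it as far or further, Dynlrb2 with r = -0.90, Rsph9 with -0.89, Tmem212 with -0.83 and Rsph1 with -0.82. The mean of the 18 short-transcript genes other than Sec14l3 and Tppp3 gave r = -0.68, and that of the 12 long-transcript genes 0.30. Within days 1, 7 and 28, r was -0.73, -0.16 and -0.68 for those 18 genes. For the 12 long-transcript genes it was 0.85, 0.74 and 0.10. These are descriptions over libraries that share groups, and the part of length in the results was not tested beyond the correction above.

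**Figure D5:**
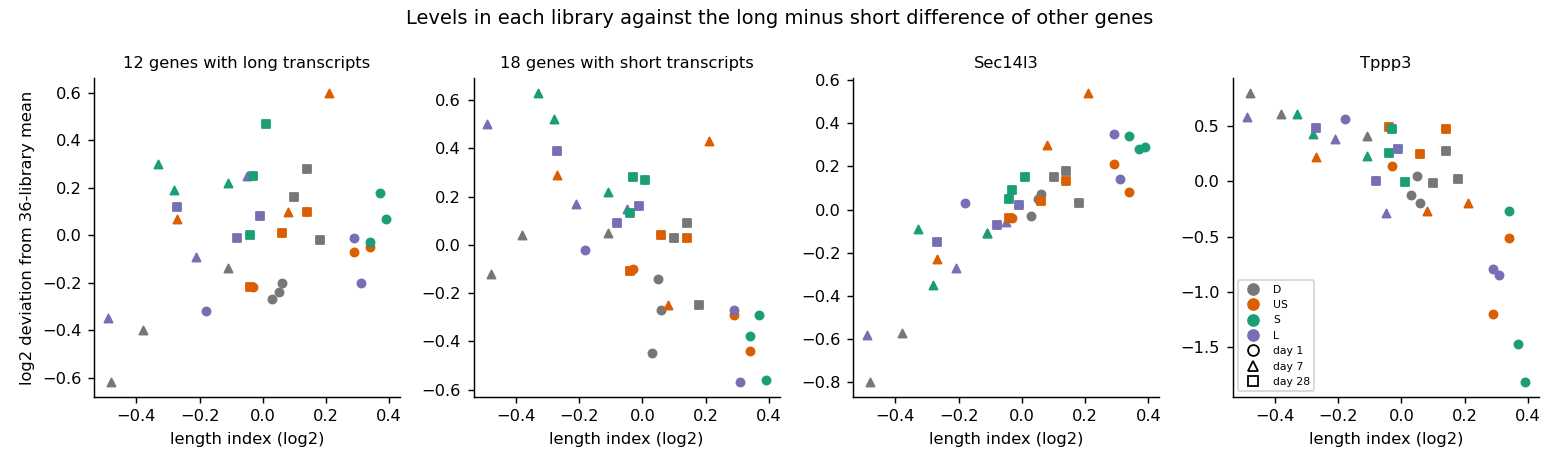
Length index of each library (x axis, log2) against the mean log2 deviation of the 12 long-transcript genes, of 18 short-transcript genes (all but Sec14l3 and Tppp3), and of Sec14l3 and Tppp3 alone; colours are materials and shapes are days. Sec14l3 rises along the index (r = 0.87) and Tppp3 falls (r = -0.80).

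The mean log2 deviation of the same 18 short-transcript genes followed that of a list of other axonemal genes with r of 0.96 and rho of 0.97 over the 36 libraries, and with r of 0.91, 0.90 and 0.97 within days 1, 7 and 28. For the 12 long-transcript genes r was 0.63 over all libraries and -0.04, 0.78 and 0.72 within the days. Taken singly, the 32 genes ranged from -0.16 (Sec14l3) to 0.93 (Enkur). Next above Sec14l3 came Hydin (0.28), Dnah11 (0.30), Dnah2 (0.34), Dnah3 (0.35), Rsph4a (0.38) and Tppp3 (0.49). Outside the 32, the genes most like their mean pattern were Ccdc146 (r = 0.94), Iqcg, Ccdc162, 1700003M02Rik, Cfap57 and Cfap70 (r = 0.93 each), Kndc1 (r = 0.92), and Lrrc6, Lrrc48 and Maats1 (r = 0.91 each), and 6 of these 10 are in the list of other axonemal genes.

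The other genes of the programme were read from lists. Of 81 other axonemal genes, 75 were tested. After US at day 7, 9 rose and 0 fell (0.905% and 1.18% of all tested genes), with 67 above 0 (51.5%) and a median of 0.35. The 3 with the smallest p were Cfap43 and Cfap44, which tether inner dynein arms, and Cfap61. Cfap43 stood at 101.1 ± 5.47 CPM (SD, n = 3) after US and 72.5 ± 7.15 CPM in D (log2 fold change 0.46 ± 0.09, adjusted p = 0.0073, edgeR). Cfap44 stood at 33.5 ± 12.1 CPM and 14.3 ± 4.75 CPM (1.21 ± 0.26, adjusted p = 0.023). After S, 9 rose and 0 fell (0.408% and 0.0414% of all tested genes), and 73 were above 0 (48.0%) with a median of 0.57. All 3 S libraries lay above D in 60 of the 75, against 11.1% of all tested genes. Ccdc108 was at 77.7 ± 1.67 CPM after S and 37.6 ± 5.01 CPM in D (1.00 ± 0.21, adjusted p = 0.0301), and the assembly factor Lrrc6 at 13.3 ± 1.20 and 6.89 ± 1.45 CPM (0.90 ± 0.19, adjusted p = 0.0251). After L, 0 passed in edgeR, where 0.0887% of all tested genes rose and 0.0651% fell. There 18 had an unadjusted p under 0.05 (4.87% of all tested genes) and 69 were above 0 (50.0%), with a median of 0.32.

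Of 26 genes for transport along the cilium, 3 rose after US at day 7 (Wdr19, Dync2h1 and Wdr35) and 1 after S (Wdr19). The shares of all tested genes that rose were 0.905% after US and 0.408% after S. Of 17 regulators of multiciliated cells, 16 were tested. After S at day 7, 4 of these rose and 0 fell (0.408% and 0.0414% of all tested genes), with 14 above 0 (48.0%) and a median of 0.55. The 3 with the smallest p were Ccna1, a cyclin, at 7.88 ± 2.49 CPM against 2.07 ± 0.243 CPM in D (1.89 ± 0.30, adjusted p = 0.00713, edgeR), Mcidas, a coregulator that starts the multiciliated programme, at 2.75 ± 0.996 against 0.697 ± 0.102 CPM (1.95 ± 0.39, adjusted p = 0.0208), and Foxn4, a forkhead factor, at 2.25 ± 0.469 against 0.512 ± 0.377 CPM (2.08 ± 0.45, adjusted p = 0.0315). After US, Myb alone rose (0.65 ± 0.18, adjusted p = 0.0475). In the D libraries of day 7, 1 CPM was 17.277, 18.593 and 19.767 counts, so Mcidas and Foxn4 rested on few reads there. Without D replicate 1 of that day, 0 genes of the whole table passed after S. The S calls in the axonemal, transport and regulator lists therefore all depend on that library. After US, 18 genes of the table passed without it, against 353 with it.

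Markers of neighbouring cells were read beside these results. Of 15 markers of club and other secretory airway cells, all tested, 1 (Bpifa1) fell after US at day 7, where 1.18% of all tested genes fell. The median of the 15 was -0.45. After S 0 passed in edgeR, with 4 at an unadjusted p under 0.05 and a median of -0.25. Their summed level ran from 37627 to 50987 CPM in D, from 30465 to 44411 CPM after US, from 28785 to 43542 CPM after S and from 32137 to 45033 CPM after L, with 0 markers at 0 in all libraries. In D from day 7 to day 28, 7 of the 15 fell (6.73% of all tested genes) and the median of the 15 was -1.70. The summed level of 10 neutrophil markers ran from 183.2 to 247.3 CPM in D and from 156.1 to 435.8 CPM after US at day 7, and 0 of 10 passed there (edgeR), with 1 at an unadjusted p under 0.05. Of 6 tested fat markers, Adig fell after US and the median was -2.0, and of 10 endothelial markers Egfl7 and Cldn5 fell with a median of -0.01. After US at day 7, 0 markers passed in edgeR among 6 basal cell, 2 cartilage, 7 cardiomyocyte, 10 alveolar type 1 and 10 alveolar type 2 genes tested, with 0, 0, 0, 3 and 2 at an unadjusted p under 0.05 and medians of -0.06, -0.26, -0.72, 0.12 and 0.00. The part of these cells in the results was not tested. For US and S at day 7 the share of all tested genes at an unadjusted p under 0.05 is not given here. The counts of markers at that threshold therefore have no background beside them.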

How the data were processed

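Whole-lung RNA was measured in 36 libraries, 3 for each of 12 groups. The deposited counts are the authors' whole reads per gene, and the deposited TPM values come from the authors' per-library abundance tables, per the file headers. The submitters' processing notes name STAR 2.5.1b, featureCounts 1.5.1, StringTie 1.3.3 and GRCm38. The same notes also list GRCh37, a human genome build. Annotation release and strandedness of counting: not given in the sources used here. The members and lists were chosen with earlier results of these data known. Counts from all 36 libraries entered a single quasi-likelihood fit (edgeR 4.0.16, TMM factors, filterByExpr), with Benjamini-Hochberg adjustment over 16903 genes, a threshold of 0.05 and 27 comparisons. The code was tested on simulated data. Alternatives were RLE factors, no filter, a replicate block, DESeq2 1.42.0, fits of the compared groups alone, limma 3.58.1 on log2(TPM + 1) and log2(TPM + 0.1), offsets for GC content and transcript length (99.6% of tested genes had a transcript), a thinned library and leaving out single libraries. Offsets together with the block were added after seeing the data. Values in every library are printed for genes that passed against D and, in each role with none, for the gene with the highest mean TPM. From other lists at most 3 genes with the smallest p per comparison are named, and outside the lists the 10 genes most correlated with the members.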

Additional observations from a re-analysis of the deposited data

Results flagged for a closer look

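For 2 genes the difference between US and D was not the same at days 7 and 28 by a test of that difference (the interaction term of edgeR's quasi-likelihood fit, adjusted over 16903 genes). For Dnah7b the log2 difference at day 28 minus that at day 7 was -0.97 ± 0.19 (adjusted p = 0.0299). For Dnah10 it was -1.04 ± 0.21 (adjusted p = 0.0386). The range with single libraries left out was -1.09 to -0.85 for Dnah7b and -1.16 to -0.87 for Dnah10.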

How the results depend on the processing

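Single libraries were the main limit. With each left out in turn, the number of the 32 genes past the threshold ran from 1 to 15 for US at day 7 (7 with all libraries), from 0 to 5 for S at day 7 (2), from 0 to 5 for the US difference at day 28 minus day 7 (2) and from 0 to 12 for D from day 7 to day 28 (8). It ran from 0 to 1 for S at day 1, from 0 to 5 for L against US at day 7 and from 0 to 2 for D from day 1 to day 7, each 0 with all libraries. For US at day 7 the number was 0 in a fit of the compared groups alone, 1 with limma on log2(TPM + 1) or log2(TPM + 0.1), 0 with limma without a filter, 2 with GC and length offsets, with or without the block (Dnah9 and Sec14l3), and 10 with DESeq2. The gene called by limma was Ccdc40, so all 7 were lost there. For S at day 7 it was 7 with DESeq2, 8 with the offsets and 6 with offsets and block. The groups-alone fit gave 3 (Dnah10, Dnah12 and Dnah3) and the limma fits 3, 2 and 2 (among Ccdc39, Ccdc40 and Enkur), so Dnah7b was lost in these and with offsets and block, and Dnah10 with limma. For the US difference between days 28 and 7 it was 5 with DESeq2 and 0 with the compared groups alone, with each of the 3 limma fits and with the offsets, with or without the block. For D from day 7 to day 28 it was 2, 2 and 0 with the limma fits and 1 with the offsets, with or without the block, and the groups-alone fit lost Dnah7a, Dnah7b and Dnah9 and called Dnah3, Dynlrb2 and Tppp3. A fit of the compared groups alone gave 1 for S at day 1, L at day 28, L against US at day 28 and D from day 1 to day 7, and DESeq2 gave 1 for the S difference between days 28 and 7. The cause of these changes was not tested.

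Direction turned for Dnah7b in D from day 7 to day 28 (-0.01 with the offsets, with or without the block). After US at day 7 it turned for Dynlrb2 (0.00 with the limma fits and the offsets, and -0.36 to 0.10 with single libraries left out), for Zmynd10 (-0.01 without US replicate 3, the lowest of -0.01 to 0.30 with single libraries left out) and for Rsph1 (0.03 with the limma fits, 0.08 with the offsets, 0.07 with offsets and block, and -0.23 to 0.07 with single libraries left out). Over all genes, the 353 calls for US at day 7 became 1233 with DESeq2, 10 with the compared groups alone and 95 to 142 with limma. The 76 for S at day 7 became 169 with DESeq2, 162 with the offsets and 146 with offsets and block. The 23 for the US difference between days became 81 without a filter, 197 with DESeq2, 1, 3 and 2 with limma, 13 with the block and 11 with offsets and block. The 2643 for D from day 7 to day 28 became 1524, 1640 and 67 with limma, 731 with the offsets and 490 with offsets and block.

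Libraries with the same replicate number did not deviate together: the median correlation was 0.00 over 198 pairs, against 0.002 over 396 pairs of other numbers, and 9 of 36 libraries correlated best with their own number. With the replicate block the numbers were 7, 3, 2 and 8 for US at day 7, S at day 7, the US difference between days and D from day 7 to day 28.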
